A study of Drosophila melanogaster with 8 samples.

Results

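*aristaless* (*al*) and *C15* are homeobox genes of the pretarsus, the claw-bearing tip of the fly leg, and the binding of the leg regulators Dll and Sp1 around them is described here. The peaks were chosen by position alone: every peak of either list that touched dm3 window chr2L:370000-410000, named for *al*, or window chr3R:17190000-17380000, named for *lbl*, *lbe* and *C15*. These windows of 40 and 190 kb held 75 of the 22169 deposited peaks, 46 of 12319 for Dll and 29 of 9850 for Sp1. The *al* window held 11 Dll and 5 Sp1 peaks, and the *lb-C15* window held 35 Dll and 24 Sp1 peaks. Gene positions within the windows were not used, so values given at *al* are those of the *al* window. The study's intersection regions were added, of which none lay in the *al* window and 2 lay in the *lb-C15* window. An intersection region is a stretch with peaks of both factors, open chromatin in FAIRE-seq and sequence matches for Dll, Sp1, Mad and Pan.

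The leg disc is an epithelial sac in the larva whose centre becomes the tip of the adult leg. Dll, a homeodomain protein, is needed for all but the most proximal leg, and Sp1 is a zinc finger protein of the Sp family that also acts in leg growth and patterning. EGFR signalling in the disc centre turns on *al*, which encodes a paired-type homeodomain protein, and *C15* (*clawless*), which encodes a relative of the vertebrate TLX proteins. Both proteins are known to act together in the pretarsus. The *ladybird* genes *lbl* and *lbe* encode relatives of the vertebrate LBX proteins and are best known for specifying embryonic heart and muscle precursors. They share a homeobox cluster with *C15*. In the RefSeq order of Release 6, the protein-coding genes from *lbl* run *lbl*, *lbe*, *Fancm*, *C15*, and *al* lies between *Ent1* and *CG4213*.

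Dll was precipitated with an anti-Dll antibody from leg discs of wandering L3 *yw* larvae, and Sp1 with an anti-GFP antibody from larvae of the same stage that carry Sp1-GFP (BAC), a tagged Sp1 on a transgene inserted outside its own locus. Each factor has 3 ChIP libraries and 1 input library in the labels, each pool held 100 larvae, and all 6 leg discs of a larva were used. The authors called peaks on merged ChIP libraries against input. The methods describe triplicate pools and also merged duplicates, so a list may rest on fewer than its 3 ChIP libraries. The lists therefore give no spread between replicates and no read counts, the depth is unknown, and no test between conditions was possible. Larvae and antibody differed between the factors, so these cannot be told apart from the factor. Strong binding in a few cells of the disc and weaker binding in many also cannot be told apart, which bears on genes expressed in a small central domain. The lists hold no expression, so the tissue label could not be checked against markers. Each peak carries the −log10 q value of the peak caller, with a lower limit of 4 in both lists and a highest value of 60.31 for Dll and 84.94 for Sp1. Since this score is not comparable between lists, peaks are also given by percentile rank within their own list, where 100 is the strongest. An absent peak means only that no call passed a −log10 q of 4.

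In the *al* window, Dll and Sp1 met at 4 places, and none of these held a peak in the top 10% of its list. The 11 Dll peaks had −log10 q values from 4.39 to 12.53 with a median of 6.42, and the 5 Sp1 peaks had values from 4.00 to 11.42 with a median of 4.74. The median percentile rank was 41.8 for Dll (95% interval of the median 15.7 to 77.7) and 20.6 for Sp1. The 5 Sp1 peaks are too few for a 95% interval, and their ranks ran from 1.44 to 83.4. With so few peaks neither median can be told from the middle of its list. Ranked by peak length instead, the Sp1 median was 58.5. No peak of either factor in this window reached the top 10% of its list, against a background of 10.1% of all Dll peaks and 9.89% of all Sp1 peaks (ties move these shares from 10%). In the top 25% there were 2 Dll peaks and 1 Sp1 peak.

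The peaks of the *al* window fell into 3 groups when peaks within 2 kb of each other were put together. The first group, chr2L:377416-380971, held 6 Dll and 2 Sp1 peaks. Its strongest Dll peak, chr2L:377737-378593, had a −log10 q of 10.85 at percentile 74.4 and was the longest of the window at 856 bp. Within it lay the strongest Sp1 peak of the window, chr2L:377763-378028, with a −log10 q of 11.42 at percentile 83.4. This Sp1 peak covered only 31.0% of the Dll peak, towards one end, with the centres 269.5 bp apart. A weaker pair lay just beside it, a Dll peak at chr2L:377416-377674 (−log10 q 4.71) and an Sp1 peak at chr2L:377443-377597 that sat at the lower limit of the list (−log10 q 4.00). The other 4 Dll peaks of the group reached at most 8.33 and had no Sp1 peak.

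The second group was the weakest, with 1 Dll peak at chr2L:388118-388544 (−log10 q 5.18) and 2 Sp1 peaks. The Sp1 peak at chr2L:388194-388275 (−log10 q 4.53) lay inside the Dll peak. The other, chr2L:386371-386426 (−log10 q 4.74), was the only Sp1 peak of the window with no Dll peak and lay 1692 bp from the nearest one.

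The third group, chr2L:392616-394078, carried the strongest Dll binding of the *al* window. Its peak chr2L:393007-393451 had a −log10 q of 12.53 at percentile 80.1. The Sp1 peak chr2L:393052-393420, with a −log10 q of 7.64 at percentile 60.7, covered 82.9% of it, and the centres lay 7 bp apart. This was the closest match of the 4 pairs of the window. The second strongest Dll peak of the window, chr2L:392616-392871 with a −log10 q of 11.86, ended 181 bp from that Sp1 peak and had none of its own. Beyond this group no peak of either factor was called in the remaining 15.9 kb of the window, and none in the 7.42 kb before the first group.

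**Figure D1:**
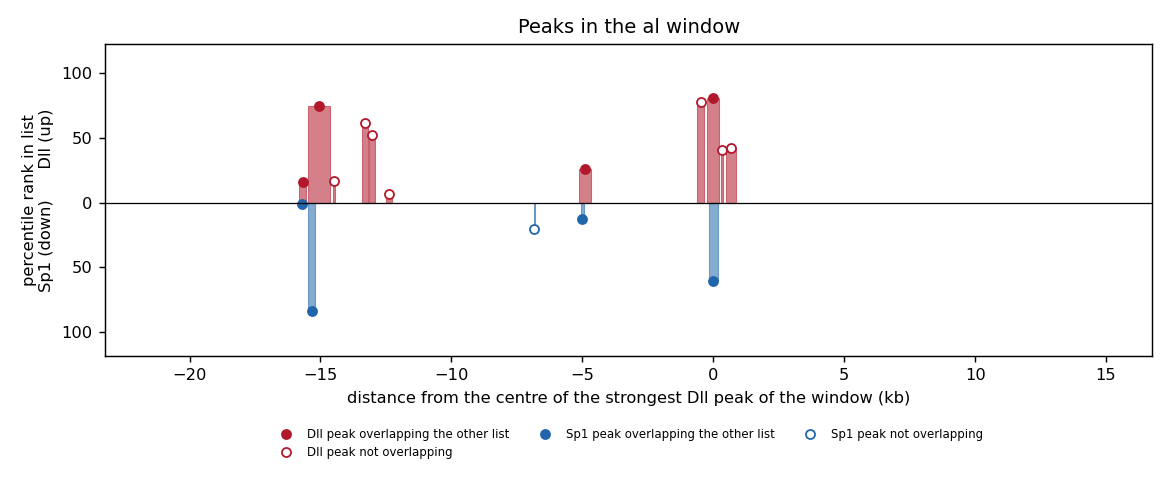
Peaks of the *al* window by distance in kb from the centre of the strongest Dll peak (x axis) and by percentile rank within their own list (y axis, Dll upward, Sp1 downward). Each bar spans 1 peak, filled circles mark peaks that overlap a peak of the other list, and open circles mark the rest. The 16 peaks form 3 groups, and the highest ranks are 80.1 for Dll and 83.4 for Sp1.

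In the *lb-C15* window the highest percentile ranks were 94.99 for Dll and 99.8 for Sp1. The 35 Dll peaks had −log10 q values from 4.02 to 21.22 with a median of 6.15, and the 24 Sp1 peaks had values from 4.10 to 49.37 with a median of 6.11. In the top 10% of the lists were 3 of the 35 Dll peaks (8.57%, background 10.1%) and 4 of the 24 Sp1 peaks (16.7%, background 9.89%). Median percentile ranks were 40.4 for Dll (95% interval of the median 33.3 to 62.8) and 43.4 for Sp1 (30.0 to 65.8), and both intervals include the middle of the list. The Dll median was 58.5 when peaks were ranked by length and 57.2 after peaks within 500 bp were joined. The shares in the top 25% were 25.7% for Dll and 20.8% for Sp1.

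Among the 2751 of 9850 Sp1 peaks with no Dll peak was the strongest of the whole list, with a −log10 q of 84.94. The strongest Sp1 peak of either window, chr3R:17234199-17234596, also had no Dll peak. Its −log10 q of 49.37 ranked 20 in the whole Sp1 list, at percentile 99.8, and it was 397 bp long. Weaker Sp1 peaks flanked it on both sides, chr3R:17233749-17233870 (−log10 q 7.64) at 329 bp and chr3R:17234820-17234884 (−log10 q 5.69) at 224 bp, and neither had a Dll peak. The nearest Dll peak, chr3R:17239660-17240192 with a −log10 q of 11.10, began 5064 bp away. On the other side, the nearest Dll peak ended 29.8 kb away, at 17204387. The 3 Sp1 peaks thus lay within a stretch of 35.3 kb, from 17204387 to 17239660, in which no Dll peak was called. Of 2966 windows of 40 kb set end to end on the main chromosome arms, 893 held no Dll peak. A weak Sp1 peak, chr3R:17204546-17204691 (−log10 q 4.53), lay near the low-coordinate end of the 35.3 kb stretch.

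Next to it, in chr3R:17239660-17245709, 8 Dll and 5 Sp1 peaks formed the group with the strongest Dll binding of either window. The Dll peak chr3R:17244884-17245709 had a −log10 q of 21.22 at percentile 94.99. The Sp1 peak inside it, chr3R:17245086-17245558, reached only 8.09 at percentile 65.8, although it covered 57.2% of the Dll peak with the centres 25.5 bp apart. The second Dll peak, chr3R:17242333-17243177, ended 1707 bp before it and had a −log10 q of 20.55 at percentile 94.4. Its Sp1 peak, chr3R:17242453-17243076, had 25.38 at percentile 98.0. Here Sp1 covered 73.8% of the Dll peak, and the centres lay 9.5 bp apart. At 623 bp it was also the longest Sp1 peak of either window. These neighbouring Dll peaks of almost equal rank thus carried Sp1 peaks that differed by 32.2 percentile points. Over all 7195 overlapping pairs of the lists, Dll rank and Sp1 rank were only weakly related (Spearman rho 0.218).

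The Sp1 peak chr3R:17242453-17243076 has the same start and end as one of the intersection regions, and *lbl* is the gene annotated as nearest to it. The other intersection region coincides with the Sp1 peak chr3R:17259830-17260253, again with *lbl* as the nearest gene, 16754 bp further along. This Sp1 peak had a −log10 q of 25.76, also at percentile 98.0. It lay inside the Dll peak chr3R:17259001-17260494, which had 12.59 at percentile 80.1 and, at 1493 bp, was the second longest Dll peak of the window. Sp1 covered 28.3% of it, with the centres 294 bp apart. Thus 2 of the 35 Dll peaks and 2 of the 24 Sp1 peaks of the *lb-C15* window touched an intersection region, or 5.71% and 8.33%, against a background of 3.46% of all Dll peaks and 4.48% of all Sp1 peaks. The strongest Sp1 peak of the window, which lacks Dll, ended 7857 bp before the first region.

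A further strong pair lay at chr3R:17271877-17272580, where Dll had a −log10 q of 18.69 at percentile 92.5. The Sp1 peak within it, chr3R:17272140-17272465, had 14.37 at percentile 90.5. Both peaks of a pair stood in the top 10% of their lists here and at the first intersection region, so in 2 of the 17 pairs of the *lb-C15* window and in none of the 4 pairs of the *al* window, or 2 of 21 in all (9.52%, background 5.42%). This pair stood alone, with no other peak within 2 kb, and is not an intersection region.

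At the low-coordinate end of the window, chr3R:17198927-17204691 held 8 Dll and 5 Sp1 peaks. The longest Dll peak of either window lay here, chr3R:17199843-17201608 with 1765 bp, but its −log10 q was only 6.64. It held a single small Sp1 peak, chr3R:17201422-17201502 (−log10 q 5.82), that covered 4.53% of it. The strongest peaks of this group were the Dll peak chr3R:17198927-17199359 with 12.37 and the Sp1 peak chr3R:17202193-17202660 with 13.16, which did not overlap each other. That Sp1 peak instead spanned parts of 2 Dll peaks, chr3R:17202071-17202484 (−log10 q 11.76) and chr3R:17202552-17202642 (4.07), and was the only Sp1 peak of either window to do so.

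Beyond 17292637 the window was sparse. Its remaining 87.4 kb held 3 Dll and 2 Sp1 peaks. The strongest of these were the Dll peak chr3R:17325263-17325573 with a −log10 q of 11.16 at percentile 75.2 and the Sp1 peak within it, chr3R:17325345-17325483, with 8.33 at percentile 69.4. Their centres lay 4 bp apart. A second pair, chr3R:17307758-17307852 for Dll (−log10 q 4.41) and chr3R:17307767-17307841 for Sp1 (4.10), had both its peaks close to the lower limit of the lists. The last Dll peak, chr3R:17346742-17346860 (−log10 q 5.98), had no Sp1 peak within 21259 bp, and after it neither factor was called for 33.1 kb. The dm3 positions of *lbl*, *lbe* and *C15* within the window were not used here, so no peak was assigned to *C15* or *lbe*.

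**Figure D2:**
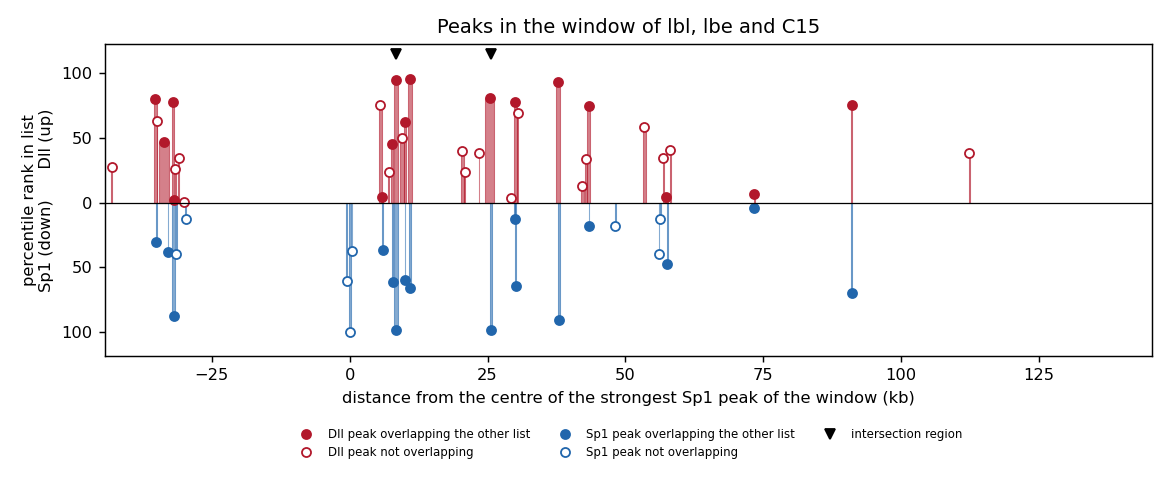
Peaks of the *lb-C15* window by distance in kb from the centre of its strongest Sp1 peak (x axis) and by percentile rank within their own list (y axis, Dll upward, Sp1 downward), drawn as bars that span each peak. Filled circles mark peaks that overlap a peak of the other list, open circles mark the rest, and black triangles mark the 2 intersection regions. The Sp1 peak at 0 kb stands at percentile 99.8 with no Dll peak, and the Dll peaks with the highest ranks, 94.4 and 94.99, lie to its right.

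Sp1 peaks met a Dll peak more often than Dll peaks met an Sp1 peak, in both windows as in the whole lists. Within each window as many Dll as Sp1 peaks overlapped, so there the difference only restates that Dll had more peaks. In the *al* window, 4 of 11 Dll peaks (36.4%, 95% Wilson interval 15.2% to 64.6%) and 4 of 5 Sp1 peaks (80.0%, 37.6% to 96.4%) overlapped the other list by at least 1 bp. In the *lb-C15* window the shares were 16 of 35 for Dll (45.7%, 30.5% to 61.8%) and 16 of 24 for Sp1 (66.7%, 46.7% to 82.0%). The background was 43.1% of all Dll peaks and 72.1% of all Sp1 peaks, and all 4 intervals include it. These intervals cover counting error only and treat neighbouring peaks as independent. When only overlaps of 50% or more of each peak were counted, the shares of the *lb-C15* window fell to 11.4% for Dll and 16.7% for Sp1, since most Sp1 peaks were much shorter than the Dll peak around them. The shares of all Dll and Sp1 peaks under this stricter rule were not worked out, so the background above does not apply to it.

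In 18 of the 21 overlapping pairs the Dll peak enclosed the whole Sp1 peak (85.7%, against 80.1% of all pairs of the lists). The shared segment made up a median of 37.1% of the Dll peak, against 29.4% over all pairs. The centres lay a median of 78.0 bp apart, from 1 to 736.5 bp, against a median of 105.5 bp over all pairs. In 13 pairs Dll had the higher percentile rank and in 8 pairs Sp1 did (38.1%, against 33.3% of all pairs). The widest difference in favour of Dll was at chr3R:17264183-17264671, where Dll stood at percentile 77.6 and the smaller of its 2 Sp1 peaks, chr3R:17264235-17264341, at 12.9. The widest difference in favour of Sp1 was at chr3R:17202552-17202642, with Dll at percentile 1.60 and Sp1 at 87.4.

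**Figure D3:**
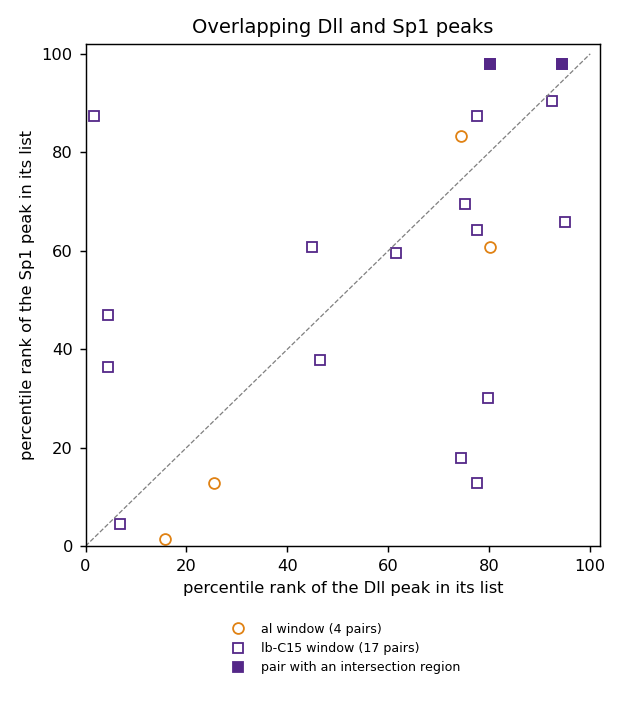
Percentile rank of the Dll peak (x axis) and of the Sp1 peak (y axis) within their own lists, for the 4 overlapping pairs of the *al* window (circles) and the 17 of the *lb-C15* window (squares), with the line of equal rank dashed. Filled squares are the 2 pairs with an intersection region, both with Sp1 at percentile 98.0, while the pairs at *al* reach at most 80.1 for Dll and 83.4 for Sp1.

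Dll peaks that overlapped Sp1 had the higher median rank in both windows. In the *lb-C15* window their median percentile rank was 74.8, against 34.1 for the 19 Dll peaks without Sp1, and over the whole list the medians were 69.9 and 38.0. At *al* the medians were 49.9 for 4 peaks and 41.8 for 7. Overlapped Dll peaks of the *lb-C15* window were also longer, with a median of 448.5 bp against 170 bp, and a longer peak has more room to be overlapped. Many of the Dll peaks without Sp1 lay close to an Sp1 peak, with 14 of 26 in both windows within 500 bp (53.8%, against 31.3% of such Dll peaks in the list). Of the 9 Sp1 peaks without Dll, 3 lay within 500 bp of a Dll peak (33.3%, against 36.6% in the list).

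Both windows held more Dll peaks than most stretches of the genome of the same length. The *al* window held 2.75 Dll and 1.25 Sp1 peaks per 10 kb, and the *lb-C15* window held 1.84 and 1.26. Over arms 2L, 2R, 3L, 3R and X the densities were 0.988 and 0.815 per 10 kb. Among 2966 windows of 40 kb set end to end on these arms, the count of Dll peaks at *al* stood at percentile 91.2 and that of Sp1 peaks at percentile 75.1. Among 618 windows of 190 kb, the counts of the *lb-C15* window stood at percentiles 89.1 and 80.3. The windows were drawn around known genes, so these positions describe them and are no test. With peaks within 500 bp joined, the 11 Dll peaks at *al* became 4 and the 35 of the *lb-C15* window became 16, while the Sp1 peaks became 4 and 18. The same joining took the whole Dll list from 12319 to 6301 peaks and the Sp1 list from 9850 to 5597. Dll peaks covered 8.61% of the *al* window and 7.66% of the *lb-C15* window, and Sp1 peaks covered 2.31% and 2.50%.

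**Figure D4:**
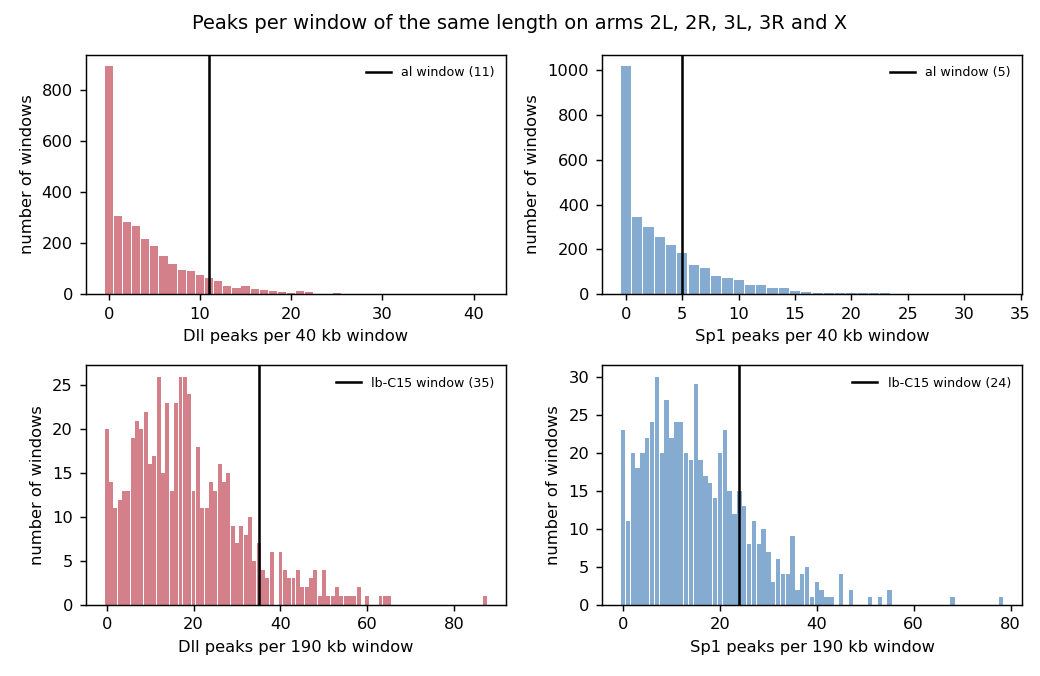
Number of windows (y axis) by the count of Dll peaks (left) or Sp1 peaks (right) they hold (x axis), for windows of 40 kb (top) and 190 kb (bottom) set end to end on the main chromosome arms. Black lines mark the *al* window, with 11 Dll and 5 Sp1 peaks, and the *lb-C15* window, with 35 and 24.

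Other genes of the proximodistal leg axis were compared through the intersection regions to which they are annotated as nearest. Of a list of 25 such genes, 10 had at least 1 region and 15 had none. The share over all genes of the genome was not worked out, so neither count can be called high or low. Genes without a region came from all along the axis: the pretarsal genes *al*, *C15* and *Lim1*, the distal tarsal homeobox genes *B-H1*, *B-H2* and *ap*, the tarsal genes *bab1* and *rn*, the medial gene *dac*, the proximal genes *hth* and *tsh*, and 4 of the 6 joint genes. The 4 overlapping pairs of the *al* window show that a locus can have peaks of both factors and no region. A region also needs open chromatin and the sequence matches, and whether these pairs met those criteria was not tested. Regions of selector genes lay mostly in strong peaks. At the *Dll* regions, which share their peaks, Dll stood at percentile 97.0 and Sp1 at 99.1. At *btd*, which encodes an Sp factor, the values were 98.2 and 95.9, and at *Sp1* they were 97.8 and 99.1. An exception was 1 of the 2 regions of *disco*, a zinc finger gene of ventral appendages, with 24.5 and 3.45. The tarsal genes *bab2*, *ss* and *tal*, with 1 region each, had weaker Dll peaks there than the regions of *Dll*, *Sp1* and *btd*. The percentiles were 39.2 for Dll and 44.1 for Sp1 at *bab2*, which encodes a BTB-domain protein. They were 52.2 and 79.3 at *ss*, which encodes a bHLH-PAS protein, and 44.9 and 99.0 at *tal*, which encodes small peptides. The regions nearest to *lbl*, with 94.4 and 80.1 for Dll and 98.0 at each for Sp1, lay below those of *Dll* and *btd* and above those of these tarsal genes by Dll rank, and below that of *tal* by Sp1 rank. The region of *disco-r* had 92.5 and 96.2, that of the joint gene *drm* had 61.0 and 53.4, and the 3 regions of *Ser*, a Notch ligand gene, had Dll ranks from 33.9 to 99.3 and Sp1 ranks from 12.9 to 97.6. Over all intersection regions the median ranks were 87.8 for Dll and 85.0 for Sp1. None of the reporter fragments tested in the study lies in either window.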

How the data were processed

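ChIP-seq of Dll and Sp1-GFP in L3 leg discs was analysed from 1 deposited peak list per factor. The authors aligned reads with the Burrows-Wheeler Aligner to dm3, called peaks with MACS2 (version 2.0.9 in the submitters' processing notes) on merged ChIP libraries against input, and deposited each peak with its −log10 q value. Coordinates are printed as deposited, and starts were read as counted from 0.

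No reads were processed. Python 3.11.15, scipy 1.17.1, pandas 2.3.3 and numpy 2.4.6 were used. Overlap meant at least 1 bp shared. Percentile ranks were taken within each list, with ties averaged. The overlap count was checked on 50 simulated pairs of 400 peaks. Intersection regions and their nearest genes were taken from the study. Peaks described in full were the 3 strongest and the longest of each list and window, those touching an intersection region and pairs in the top 10% of both lists, with others added after their values were seen. The 2 kb grouping was also chosen then. Windows, members and gene lists were chosen with earlier results of these data known. Genome sequence, dm3 annotation, FAIRE-seq peaks and motif positions were not used here.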

Additional observations from a re-analysis of the deposited data

How the results depend on the processing

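No paired analysis was possible because each list pools its ChIP libraries, and no replicate could be left out for that reason. Of 80 other settings over 16 results, 63 stayed close to the main value (counts within a factor of 1.5, other values within their 95% interval) and 17 moved. For the median Sp1 rank at *al*, the range of its 5 peaks stood in for an interval. These limits are wide at *al*: values counted as close include the median Sp1 rank of 58.5 by peak length (20.6 by score), the median Dll rank of 58.4 with peaks joined (41.8 apart), and overlap shares of 18.2% for Dll and 40% for Sp1 when overlaps of 50% or more of each peak were required (36.4% and 80%). With only the top 25% of each list, fewer peaks enter: Dll and Sp1 counts fell to 2 and 1 in the *al* window and to 9 and 5 in the *lb-C15* window, and both overlap shares at *al* became 0%, from 2 Dll peaks and 1 Sp1 peak. With peaks within 500 bp joined, Dll counts were 4 and 16, and the shares of Dll peaks with Sp1 were 75% and 62.5%. Counting only overlaps of 50% or more of each peak, the shares in the *lb-C15* window were 11.4% for Dll and 16.7% for Sp1. The overlap shares over the whole lists were not worked out for any of these settings. The background given for the main rule therefore does not apply to them. In the *al* window narrowed by 10 kb on each side, 3 Sp1 peaks were left. By bases covered, the *al* window stood at percentile 84.3 for Dll and 77.1 for Sp1, and among windows of its own arm at 92.6 and 76.8. With peaks within 5 kb in 1 group, an alternative chosen after seeing the data, the *lb-C15* window had 8 groups in place of 15. The searches for motifs and for homeodomain identity that had been planned could not be run, since no sequence was used here. Depth is unknown, so binding too weak to be called could not be assessed.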

Other observations

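The nearest Dll peak before the *lb-C15* window, chr3R:17174705-17175488, reached a −log10 q of 28.02 (percentile 98.4), above every Dll peak within the window, and ended 14512 bp before the window. The nearest Sp1 peak on that side had a −log10 q of 6.03 and lay 4681 bp from the window. On the other side, the nearest peaks were weak and far: an Sp1 peak with a −log10 q of 4.00 at 25252 bp and a Dll peak with 4.56 at 25870 bp. At *al* the nearest Dll peaks outside had a −log10 q of 5.42 at 1200 bp before the window and 5.92 at 10040 bp after it. The nearest Sp1 peaks there had 7.05 (percentile 55.7) at 11256 bp before the window and 5.02 at 4735 bp after it.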
